A study of Mus musculus with 8 samples.

Results

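The beta-globin cluster of the mouse and its locus control region were examined as the 15 accessible peaks, of 134473 in the whole table, that overlapped a window of 130 kb on chromosome 7 (mm9, 110930000 to 111060000). The peaks were chosen by position alone. The assay was ATAC-seq in its Omni-ATAC form, which reads open chromatin from the places where a transposase can insert adapters. Each library held 500 sorted bone marrow cells of C57BL/6 mice, 8 to 12 weeks old, from the MPP2 gate (LSK, Flt3 negative, CD150 positive, CD48 positive), a multipotent progenitor fraction that leans to red cells and megakaryocytes. The 4 libraries of one group were Vwf+Gata1+ MPP2 and the 4 of the other Vwf-Gata1+ MPP2, so both groups shared the sort for Gata1 and differed in the sort for Vwf, the gene of von Willebrand factor. The labels name no separate animals, so a p-value here reflects only how these libraries vary, and some of that variation may be technical.

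The beta-globin genes encode the beta-like chains of haemoglobin. Hbb-y and Hbb-bh1 are used in red cells of the early embryo, and the adult genes, Hbb-b1 and Hbb-b2, in fetal liver and bone marrow. High expression in red cells needs the locus control region, a group of enhancers beyond Hbb-y that bind GATA1, TAL1, NF-E2 and KLF1 and contact the active gene by looping. The cluster lies among olfactory receptor genes. In the RefSeq order the genes run Hbb-bt, Hbb-bs, Hbb-bh2, Hbb-bh1 and Hbb-y with pseudogenes between Hbb-bs and Hbb-bh2, Olfr67 is the neighbour on one side and Olfr66 on the other. C57BL/6 mice carry the haplotype whose adult genes RefSeq names Hbb-bs and Hbb-bt.

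The promoters were searched for a few short motifs before any accessibility is considered. Of 6 gene symbols looked up, 3 matched the promoter table: Hbb-bs, Hbb-bt and Hbb-y. Hbb-bh1, Hbb-b1 and Hbb-b2 had no entry. The sequences are from RefSeq, build GRCm38.p6, minus strand, 5′ to 3′, and run from 250 bases before the gene start to 50 after it. Capitals mark CACCC (the kind of box that KLF1 binds), CCAAT (bound by NF-Y), TATAA and GATA, each searched on both strands. These coordinates belong to another build than the peaks and were not converted.
Hbb-bs, chr7:103827879-103828178: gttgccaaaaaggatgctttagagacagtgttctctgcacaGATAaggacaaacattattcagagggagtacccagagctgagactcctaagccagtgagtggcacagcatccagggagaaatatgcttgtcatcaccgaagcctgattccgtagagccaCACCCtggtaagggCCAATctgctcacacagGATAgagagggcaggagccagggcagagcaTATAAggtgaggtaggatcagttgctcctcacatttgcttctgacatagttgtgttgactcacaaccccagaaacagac
Hbb-bt, chr7:103813874-103814173: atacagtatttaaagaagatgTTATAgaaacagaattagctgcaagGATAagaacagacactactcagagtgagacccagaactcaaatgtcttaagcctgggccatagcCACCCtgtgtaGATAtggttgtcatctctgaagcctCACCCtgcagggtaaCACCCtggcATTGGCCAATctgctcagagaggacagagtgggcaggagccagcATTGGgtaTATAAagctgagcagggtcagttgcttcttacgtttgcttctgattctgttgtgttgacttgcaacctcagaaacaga
Hbb-y, chr7:103853158-103853457: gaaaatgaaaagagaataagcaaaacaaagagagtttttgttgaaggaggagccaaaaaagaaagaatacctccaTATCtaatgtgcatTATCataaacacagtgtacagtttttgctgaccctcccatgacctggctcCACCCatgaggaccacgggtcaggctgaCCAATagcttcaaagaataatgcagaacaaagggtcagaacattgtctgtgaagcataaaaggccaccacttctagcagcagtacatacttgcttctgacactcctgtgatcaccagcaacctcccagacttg

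CACCC occurred once in Hbb-bs, 90 bases before the start, once in Hbb-y, 111 bases before it, and at 3 places in Hbb-bt, 140, 104 and 89 bases before it. A forward CCAAT began 76, 75 and 83 bases before the start of Hbb-bs, Hbb-bt and Hbb-y. In Hbb-bt it abutted a reverse CCAAT, and another reverse match began 36 bases before the start. A forward TATAA began 29 bases before the start of Hbb-bs and 28 before that of Hbb-bt, which also held a reverse match 229 bases before the start. TATAA was on neither strand of the Hbb-y window, which held the near match cataaaa shortly before the start. Only exact letters were searched and Hbb-bh1 had no entry, so no difference between adult and embryonic promoters is read from this. Each of the 3 promoters held GATA at 2 places. Of all 32851 promoters in the table, 57.5% held CACCC, 37.4% CCAAT, 24.9% TATAA and 57.9% GATA, and 4.53% held the first 3 together, as Hbb-bs and Hbb-bt do. These matches describe letters, not bound sites.

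The 15 peaks fell into 3 stretches, named here by the order of the genes in the window. Peaks were not assigned to single genes, because no mm9 annotation was used here. A stretch is a range of positions, and a peak within it need not lie at a gene. The stretch of the adult genes held 7 peaks, called A1 to A7, below 110985000. The stretch of the embryonic genes Hbb-bh1 and Hbb-y, from 110985000 to 111005000, held 1 peak, called E1. The side of the locus control region, above 111005000, held 7 peaks, called L1 to L7. By position, A1 was at 110941243 to 110941962, A2 at 110957488 to 110957880, A3 at 110957959 to 110958283, A4 at 110959951 to 110960365, A5 at 110960709 to 110960958, A6 at 110961688 to 110962100 and A7 at 110975544 to 110976702. E1 was at 110993195 to 110993474. L1 was at 111007601 to 111008023, L2 at 111009417 to 111009830, L3 at 111010086 to 111010381, L4 at 111014278 to 111014566, L5 at 111019015 to 111019576, L6 at 111025645 to 111026020 and L7 at 111058040 to 111059520. A2 to A6 lay within 4.61 kb and L1 to L6 within 18.4 kb, while 32.02 kb without a peak separated L6 from L7.

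Total counts in all peaks ran from 4628997 to 7753538 per library, and between 448 and 844 of them fell in the 15 peaks of the window. Libraries of the same group differed by more than the sampling noise of independent counts (chi-square per degree of freedom 1.29 to 1.94), and none was merged. Whether counts are independent could not be checked, because the unit counted, reads or fragments, is not given. The spread of counting alone, used below, rests on the same assumption. Signal is given as CPM, the count of a peak scaled to the size of its library, after TMM scaling, which also corrects for library composition. In what follows, values of 4 libraries stand in the order of replicates 1 to 4.

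The beta-globin locus was more open than most stretches of the genome and than its own surroundings. Its 15 peaks covered 6.0% of the window, where the median of 20327 windows of the same length was 3 peaks, and 17.9% of windows had 15 or more. On chromosome 7 the median was also 3. The 130 kb below the window held 4 peaks with 24.4 CPM in all, and the 130 kb above it 2 peaks with 11.4 CPM. The window itself had 110 CPM over the 8 libraries. The windows were laid from base 1 of each chromosome to its last peak, so they include the chromosome ends, where no sequence is assembled.

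**Figure D1:**
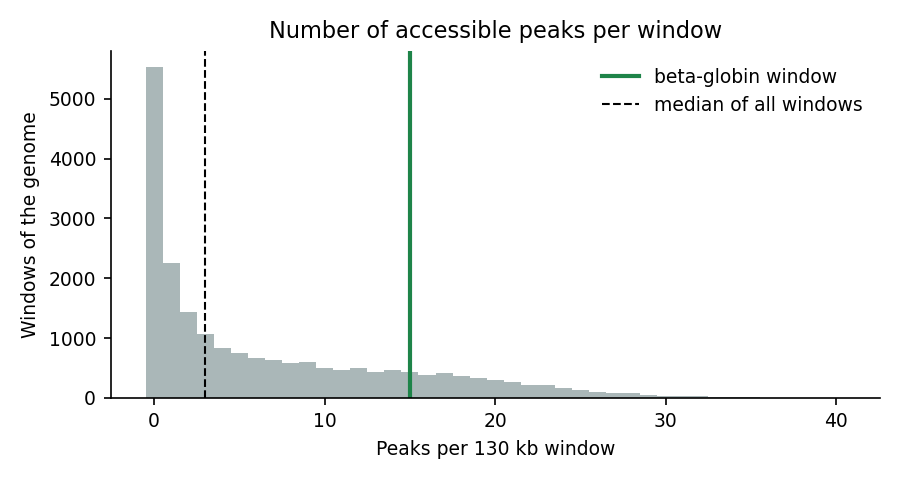
Number of accessible peaks in each of 20327 windows of 130 kb tiled over the genome; the x axis is peaks per window, the y axis the number of windows. The green line marks the beta-globin window at 15 peaks and the dashed line the median at 3.

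The most concentrated signal was on the side of the locus control region. Per kb of peak, L2 had 27.7 ± 1.89 CPM, L5 25.4 ± 3.75 and L1 23.7 ± 4.78 (SD over 8 libraries), and these 3 were the members above the 90th percentile of all peaks, 23.0 CPM per kb. The order among them was not firm: L2 exceeded L5 in 6 of 8 libraries and L5 exceeded L1 in 4 of 8. L1 exceeded the next, L7 with 17.96 ± 3.04 CPM per kb, in 7 of 8. L7 exceeded A2, the densest peak of the adult stretch with 14.9 ± 3.25, in 7 of 8.

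From A2 down to L3, the peaks A2, A6, A4, A1, A5 and L3 had 14.9 to 11.1 CPM per kb, and each exceeded the next in only 4 to 6 of 8 libraries. L3 exceeded A7 in 8 of 8 libraries. A7, A3, L4 and L6 had 7.07, 6.99, 6.16 and 5.97 CPM per kb, close to the median of all peaks, 6.73, and did not differ in order beyond their spread. E1, in the stretch of the embryonic genes, was the weakest with 3.96 ± 1.24 CPM per kb and was below L6 in 7 of 8 libraries.

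Per kb of peak, the 7 peaks on the side of the locus control region had more signal than the 7 of the adult stretch in 8 of 8 libraries. The ratio was 1.71 ± 0.172 (SD, n = 8 libraries), with a range of 1.39 to 2.0. Without L7, which lies apart from the other peaks of its stretch, the ratio was 1.72 ± 0.163. These ratios are taken within each library and do not depend on how libraries were scaled. They do depend on which peaks are included. A7, the widest peak of the adult stretch at 1159 bp, had 7.07 CPM per kb against 10.7 for that stretch. Without A7 the ratio would be lower, and it was not computed.

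**Figure D2:**
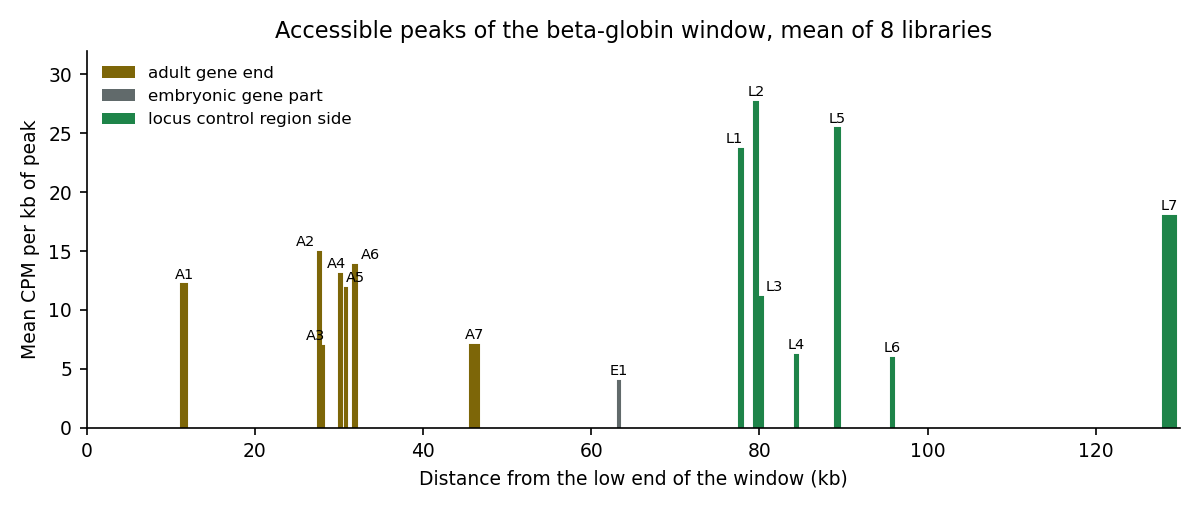
Peaks of the beta-globin window drawn to scale, with the distance from the low end of the window in kb on the x axis and the mean CPM per kb of peak over 8 libraries on the y axis. Brown bars are the stretch of the adult genes, grey that of the embryonic genes and green the side of the locus control region, where L2 (27.7), L5 (25.4) and L1 (23.7) are the tallest.

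The comparison of the 2 sorts asked whether accessibility at the beta-globin genes or their control region differed between MPP2 cells with and without Vwf. No difference passed the test. Of the 15 peaks, 14 had enough counts to be tested and E1 did not. With edgeR's quasi-likelihood test 0 of the 14 had an adjusted p under 0.05, where 0.0144% of all 97040 tested peaks did. DESeq2 and limma-voom also called 0 of the 14, though DESeq2 gave L4 no adjusted p and so could not call it. Of the peaks given an adjusted p, DESeq2 called 0.0137% of 80107 and limma-voom 0.00103% of 97040. At an unadjusted p under 0.05 edgeR gave 1 of the 14, A2, lower in Vwf+Gata1+ cells, and 3.2% of all tested peaks were lower at that level, or 6.72% lower or higher. DESeq2 gave 1 of the 14, A2, against 3.47% of all tested peaks. Limma-voom gave 3, A2, A4 and L3, against 7.49%.

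The point estimates were below 0, that is lower in Vwf+Gata1+ cells, at 10 of the 14, with a median log2 fold change of -0.23 and a range of -0.48 to 0.13. Over all tested peaks the median was 0.0039 and 49.3% were below 0. The peaks of a locus share their libraries and are not independent, and no test was made over the group. Less signal at a peak may come from fewer cells in which it is open or from fewer insertions per cell, which bulk libraries cannot tell apart.

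**Figure D3:**
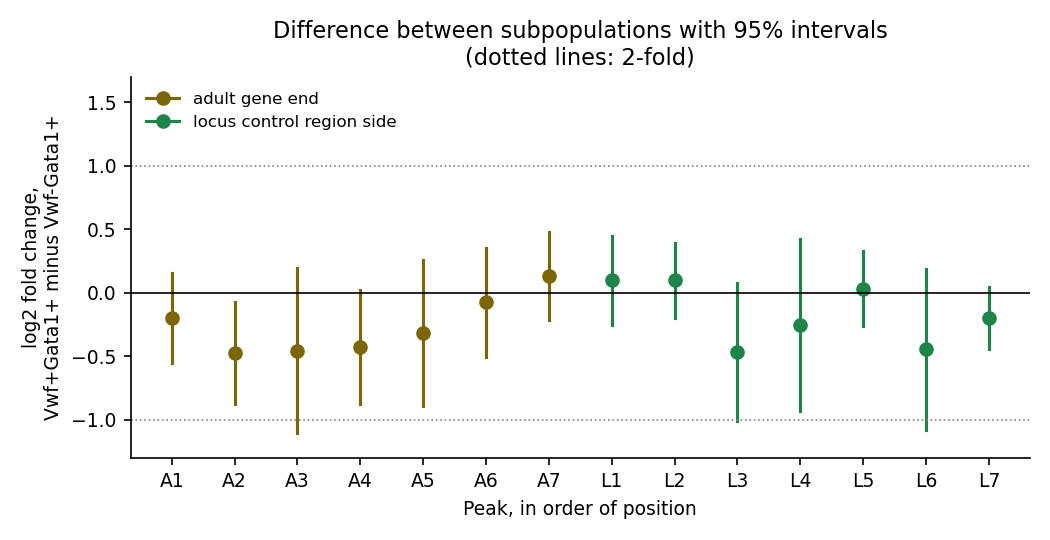
Log2 fold change (Vwf+Gata1+ minus Vwf-Gata1+, y axis) of each of the 14 tested peaks in order of position (x axis), with 95% intervals; brown is the stretch of the adult genes and green the side of the locus control region, and dotted lines mark 2-fold. Of the 14 intervals 13 include 0, the exception being A2, and the estimates run from -0.48 at A2 to 0.13 at A7.

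Of the locus control region side, the 3 peaks densest per kb, L2, L5 and L1, had groups that overlapped and estimates slightly above 0. L2 had 11.5, 13.1, 11.2 and 11.5 CPM in replicates 1 to 4 of Vwf+Gata1+ cells compared with 10.5, 10.9, 11.7 and 11.2 CPM in those of Vwf-Gata1+ cells. The groups overlapped, and no other member varied so little. The coefficient of variation of L2 was 7.4% in Vwf+Gata1+ and 4.7% in Vwf-Gata1+ cells. Both were below the 12.0% and 11.8% of counting alone, so this steadiness is not read as a trait of the peak. Its log2 difference was 0.10 ± 0.15 (SE; adjusted p of edgeR 0.951), and the 95% interval ran from 0.872-fold to 1.31-fold. L5 had 11.5, 14.4, 17.6 and 14.5 CPM against 12.2, 16.6, 14.4 and 13.0 CPM, and the groups overlapped throughout. Its log2 difference was 0.03 ± 0.15 (SE; adjusted p of edgeR 0.988), with an interval of 0.832-fold to 1.25-fold.

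L1, the member nearest to the embryonic genes on this side, had 12.8, 11.4, 6.19 and 10.6 CPM in Vwf+Gata1+ cells compared with 9.41, 11.2, 8.58 and 9.92 CPM in Vwf-Gata1+ cells. Replicate 3 was the lowest library in both groups. Its log2 difference was 0.10 ± 0.17 (SE; adjusted p of edgeR 0.96), with an interval of 0.84-fold to 1.36-fold. Differences of 1.5-fold in either direction thus lay outside the intervals of L1, L2 and L5. The same held for A1, A6, A7 and L7, so it was not particular to the densest peaks. The share of all tested peaks with such intervals was not computed.

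L7 was the strongest peak of the window in total signal and the widest, at 1481 bp, and ranked 9936 of all peaks by mean CPM. It had 20.9, 24.6, 23.2 and 30.2 CPM in Vwf+Gata1+ cells compared with 23.8, 35.1, 27.3 and 27.7 CPM in Vwf-Gata1+ cells. Replicate 4 of the first group lay above 3 of the 4 libraries of the second. The log2 difference was -0.20 ± 0.12 (SE; adjusted p of edgeR 0.811).

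L3, the next peak beyond L2, had 3.95, 2.06, 2.98 and 2.01 CPM in Vwf+Gata1+ cells compared with 3.66, 4.92, 2.93 and 3.79 CPM in Vwf-Gata1+ cells. The highest library of the first group exceeded 3 of the 4 of the second. Its log2 difference was -0.46 ± 0.27 (SE; adjusted p of edgeR 0.798), unlike the estimate of 0.10 at L2, but the difference between these neighbours was not tested. L4 and L6 had 5 to 16 and 5 to 20 counts per library. Their log2 differences were -0.25 ± 0.33 and -0.44 ± 0.31 (SE; adjusted p of edgeR 0.941 and 0.846).

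In the stretch of the adult genes, 6 of 7 estimates were below 0, with a median log2 fold change of -0.32. A2 stood at the extreme. It had 4.61, 5.63, 3.67 and 5.61 CPM in Vwf+Gata1+ cells compared with 7.45, 7.23, 6.44 and 6.28 CPM in Vwf-Gata1+ cells, from 16 to 57 counts per library. Every library of the second group lay above every library of the first. The mean was 4.88 ± 0.937 CPM against 6.85 ± 0.578 CPM (SD, n = 4 each), and the log2 difference was -0.48 ± 0.20 (SE). The unadjusted p of edgeR was 0.0214 and the adjusted p 0.656, so A2 did not pass. A2 was the only one of the 14 whose groups did not overlap, where 3.88% of all tested peaks had groups that did not overlap.

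A4, in the same run of close peaks, had 4.08, 3.19, 6.65 and 4.89 CPM in Vwf+Gata1+ cells compared with 6.27, 8.0, 4.68 and 5.69 CPM in Vwf-Gata1+ cells. The groups overlapped through the library labelled replicate 3, the highest in Vwf+Gata1+ and the lowest in Vwf-Gata1+ cells. The log2 difference was -0.43 ± 0.22 (SE; adjusted p of edgeR 0.76). The narrower neighbours A3 and A5 had 9 to 28 and 5 to 32 counts per library, with log2 differences of -0.46 ± 0.32 and -0.32 ± 0.29 (SE; adjusted p of edgeR 0.844 and 0.895).

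The other members of the adult stretch differed less. A1, at the outer end of this stretch, had 8.3, 9.57, 5.96 and 8.63 CPM against 8.49, 12.0, 8.39 and 8.76 CPM. Its log2 difference was -0.20 ± 0.18 (SE; adjusted p of edgeR 0.895). A6 had 4.48, 6.0, 7.79 and 4.31 CPM against 6.01, 4.92, 6.63 and 5.55 CPM, or -0.08 ± 0.21 on the log2 scale (SE; adjusted p of edgeR 0.979). Its libraries were interleaved between the groups. A7, a peak of 1159 bp and the widest of this stretch, had 8.17, 8.07, 10.5 and 7.62 CPM against 7.32, 7.38, 8.39 and 8.03 CPM. It was the only adult member with an estimate above 0, or 0.13 ± 0.17 on the log2 scale (SE; adjusted p of edgeR 0.941).

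E1, the single peak of the embryonic stretch, had 0.658, 0.938, 0.917 and 1.15 CPM in Vwf+Gata1+ cells compared with 0.915, 1.08, 1.76 and 1.46 CPM in Vwf-Gata1+ cells, from 4 to 10 counts per library. The groups overlapped. It fell below the count filter, and without the filter its log2 difference was -0.47 ± 0.42 (SE; adjusted p of edgeR 0.916). No difference at E1 was detectable at this depth.

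**Figure D4:**
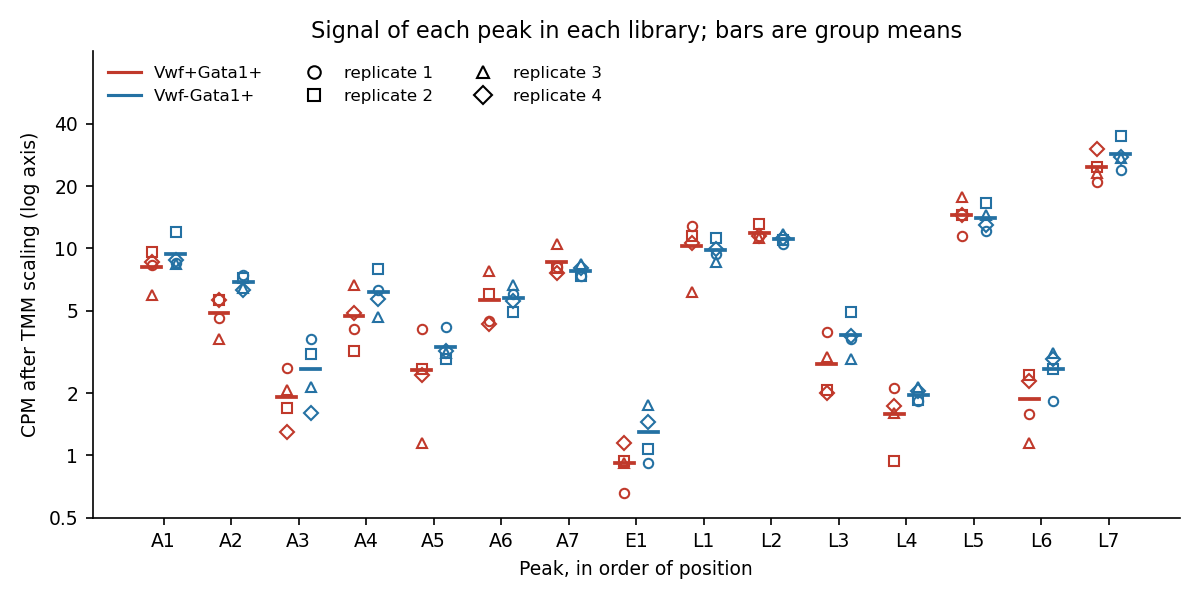
CPM after TMM scaling on a log axis (y) for each of the 15 peaks in order of position (x), with 1 symbol per replicate and a bar at each group mean; red is Vwf+Gata1+ and blue Vwf-Gata1+. The groups overlap at every peak but A2, where the red symbols reach 5.63 and the blue ones start at 6.28.

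Summed over the 15 peaks, the beta-globin locus had 101, 107, 103 and 109 CPM in Vwf+Gata1+ cells compared with 107, 130, 112 and 111 CPM in Vwf-Gata1+ cells. Means were 105 ± 3.52 and 115 ± 10.01 CPM (SD, n = 4 each), and the groups overlapped. The locus control region side had 67.5 ± 4.27 against 71.8 ± 8.34 CPM, a log2 ratio of -0.09, and also overlapped. With 1 library left out, the log2 ratio of the whole window, -0.13, ran from -0.07 without replicate 2 of Vwf-Gata1+ cells, the highest library, to -0.165 without replicate 1 of that group. That of the locus control region side ran from -0.01 to -0.145 without the same libraries. Without L7 it was -0.02.

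In the adult stretch the sums were 36.4, 36.8, 37.8 and 34.8 CPM in Vwf+Gata1+ cells compared with 43.4, 45.5, 39.8 and 39.1 CPM in Vwf-Gata1+ cells. The means were 36.4 ± 1.26 and 41.9 ± 3.03 CPM (SD, n = 4 each), a log2 ratio of -0.20, and these sums did not overlap. Among the 28454 windows of 55 kb, the length of this stretch, that held any peak, 4.29% had sums that did not overlap between the groups. These windows were not matched to the stretch in number of peaks. The sums include A2, the only member of the stretch whose own groups did not overlap, and their separation depends on A2. As a sum over chosen peaks, the difference was given no test. The share of the window's signal in the adult stretch was 34.8% ± 2.12 in Vwf+Gata1+ cells against 36.6% ± 2.56 in Vwf-Gata1+ cells and overlapped.

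**Figure D5:**
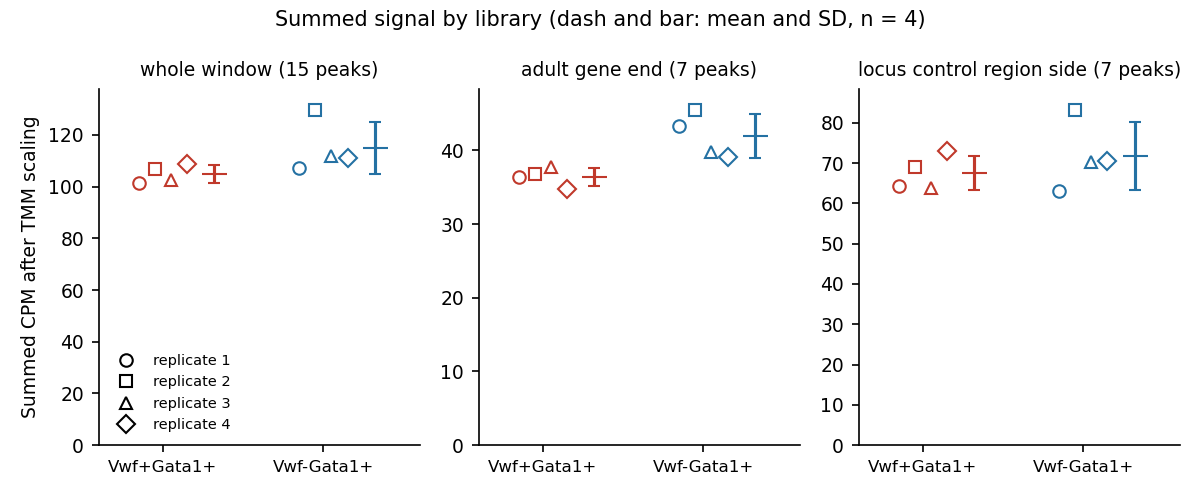
Summed CPM after TMM scaling (y axis, from 0) in each library for the whole window, the adult stretch and the side of the locus control region, by group (x axis); symbols are replicates and the dash with bar is the mean and SD of 4 libraries. Only in the middle panel do the groups not overlap, with 34.8 to 37.8 CPM against 39.1 to 45.5 CPM. This separation depends on the peak A2.

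At 11 of the 14 tested peaks the 95% interval left out a 2-fold change both up and down, as it did at 85.6% of all tested peaks. The 3 others, A3, L3 and L6, reached beyond a 2-fold decrease in Vwf+Gata1+ cells but not beyond a 2-fold increase. The upper bounds of all 14 intervals were at most 1.39-fold. No adjustment for the number of peaks was made in these intervals. Over 30 pairs of a peak and a group of 4 libraries, the ratio of the observed coefficient of variation to that of counting alone had a median of 1.04 and ran from 0.279 to 2.24, and its median over all tested peaks was 1.09.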

How the data were processed

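The authors deposited 1 table of raw counts per peak for 8 libraries. The submitters' processing notes name mm9 as the build and, with no versions or roles, MACS2, Bowtie2, Trim Galore, Picard, SAMtools and FastQC. Not given in the sources used here were the merging of peaks, the handling of duplicates, any shift of cut sites and the unit counted, reads or fragments. Starts were read as 1-based. The members and lists were chosen with earlier results of these data known.

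Groups came from the cell type in the labels and replicate numbers from the titles. All peaks were fitted together: edgeR 4.0.16 (filterByExpr with a minimum count of 10 and minimum total of 15, TMM, robust quasi-likelihood test, group only), p-values adjusted by Benjamini-Hochberg over 97040 tested peaks, threshold 0.05. The log2 difference is Vwf+Gata1+ minus Vwf-Gata1+, and its SE is its size divided by the root of F. CPM uses the counts in tested peaks times the TMM factor. Alternatives were RLE and total count scaling, other filters, DESeq2 1.42.0 and limma-voom with quality weights (limma 3.58.1), called limma-voom in the text. Further alternatives were the replicate number as a block, another threshold, other bounds of the window, and each library left out. Values per library are given for the 8 members with the highest mean CPM, the strongest of each stretch and the 4 with the lowest p. R 4.3.3, Python 3.11.15 and matplotlib 3.10.9 were used. Markers of the sorted cells were not analysed here, since peaks were not assigned to genes.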

Additional observations from a re-analysis of the deposited data

Results flagged for a closer look

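In 3 of 38 groups of 4 libraries at the beta-globin locus, 1 library lay far from the other 3 relative to the range of its group, where chance gives about 1 in 20. The peak A1, at the outer end of the adult stretch, had 12.0 CPM in replicate 2 of Vwf-Gata1+ cells against 8.39 to 8.76 CPM in the others. The peak L2 of the locus control region side had 13.1 CPM in replicate 2 of Vwf+Gata1+ cells against 11.2 to 11.5 CPM. The spread of that group was still below that of counting alone. The share of the window's signal in the adult stretch was 40.4% in replicate 1 of Vwf-Gata1+ cells against 35.1% to 35.6%.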

How the results depend on the processing

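No peak of the beta-globin window was called under any alternative, those that leave out a library included. Of 210 log2 fold changes of the 14 tested peaks in the other fits, 204 kept their direction, 0 passed the threshold, and the largest shift was 0.337. The reversed values were those of A6 without replicate 1 (0.0276) or 4 (0.0372) of Vwf+Gata1+ cells, L1 without replicate 1 of Vwf+Gata1+ cells (-0.0287), and L5 without replicate 3 of Vwf+Gata1+ cells (-0.0611) or without replicate 1 (-0.0367) or 4 (-0.00515) of Vwf-Gata1+ cells. With a library left out, A6 ran from -0.241 to 0.0372, L1 from -0.0287 to 0.247 and L5 from -0.0611 to 0.141. Other values moved by over 1.5 times as well: A1 to -0.0603 without replicate 2 of Vwf-Gata1+ cells, A3 to -0.696, A5 to -0.655, L3 to -0.74, L4 to -0.438 and L7 to -0.113 without replicate 1 of Vwf+Gata1+ cells, L2 to 0.0489 and L4 to -0.0838 without its replicate 2, A1 to -0.0993, A5 to -0.128 and A7 to 0.0377 without its replicate 3, A3 to -0.287 and L7 to -0.32 without its replicate 4, A3 to -0.23 and A5 to -0.18 without replicate 1 of Vwf-Gata1+ cells, and A4 to -0.282 and L7 to -0.0808 without replicate 2 of that group. For A2 the log2 fold change ran from -0.554 to -0.387 and the unadjusted p from 0.0133 to 0.0648 over 15 fits, 12 of them under 0.05 (adjusted p 0.319 to 1). The number of peaks called over the genome, 14, was 27 with total count scaling, 1 with limma-voom, 511 with the replicate number as a block, 60 at an adjusted p under 0.1, by construction, and 3 to 76 with a library left out (76 without replicate 1 of Vwf+Gata1+ cells, 55 without replicate 3 of Vwf-Gata1+ cells). The cause was not tested. With the replicate block 0 peaks of the window were called. Labels do not say that a number pairs libraries, and deviations of same-numbered libraries correlated at 0.309, 0.168, 0.0762 and 0.0109. The window held 15 peaks wholly inside it and 13 when narrowed by 20 kb on both sides.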

Other observations

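Over 91 pairs of tested peaks, the Pearson correlation of log2 CPM over the 8 libraries had a median of 0.068 and ran from -0.849 to 0.756, the highest being that of A1 with A2. The median was 0.086 within the adult stretch (21 pairs), 0.099 within the side of the locus control region (21 pairs) and 0.04 between them (49 pairs). All pairs share the same 8 libraries and their scaling, several peaks had few counts, and no such value was computed for other peaks, so nothing is read from these medians.

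Among 97026 tested peaks elsewhere, those most like L7, the strongest member, over the 8 libraries were at 65032670 to 65033077 on chromosome 1 (Pearson 0.979), 59594500 to 59594864 on chromosome 10 (0.966) and 53930784 to 53931541 on chromosome 6 (0.964). These are the highest of many values over few libraries and are given as a description.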
